A study of Mus musculus with 6 samples.

Results

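The Trim12, Trim30 and Gvin1 gene cluster of mouse chromosome 7 was followed in immortalized wildtype (WT) podocytes and in podocytes of the Alport syndrome model (AS podocytes). The 10 members are Trim6, Trim34a, Trim5, Trim12a, Trim12c, Trim30a, Trim30b, Trim30c, Trim30d and Gvin1, and all 10 were found among the 57132 gene identifiers of the count table. They were taken as listed antiviral genes of this locus because Trim12a and Gvin1 were nearly AS only in these same samples. The differences of the members between AS and WT podocytes are therefore described, without a test. RNA-seq was done on 3 samples of 1 WT line (Col4a3+/+) and 3 samples of 1 AS line (Col4a3-/-), from male mice of 8 weeks. Neither line received a treatment, and both carry the H-2Kb-tsA58 transgene, a temperature-sensitive T antigen under a promoter that responds to interferon. By the sample labels, both were expanded at 33 °C in medium with 20 U/mL interferon gamma and differentiated for 14 days at 37 °C. The study's methods give a lower dose and fewer days, and state that interferon gamma was left out during differentiation. By the study's methods, the lines come from Col4a3 knockout mice bred with H-2Kb-tsA58 mice of a CBA/Ca and C57BL/10 background, and the knockout stock it names for its animals is on strain 129. Which of these strains the locus comes from in each line is not stated, and genotype, cell line and strain background cannot be told apart. Whether the numbered sets of a line were separate cultures is not stated either, so p-values measure only the spread between these samples, which may be technical.

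TRIM proteins carry a RING domain, a B-box and a coiled coil, and many of them end in a B30.2 domain that recognizes the target. Most act as E3 ubiquitin ligases in innate immunity. Trim5, Trim12a, Trim12c and the Trim30 genes are the rodent relatives of human TRIM5, which restricts incoming retroviral capsids, and Trim12a is known to lack the B30.2 domain. Trim30a is known to dampen NF-kB signalling through the adaptors TAB2 and TAB3, Trim34a is induced by interferon, and Trim6 takes part in interferon signalling. Gvin1 encodes a very large GTPase that is induced by interferon. The cluster is known to differ in gene content between inbred mouse strains, and its genes are close copies of each other.

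The start of the coding sequence is shown for the Trim5 and Trim12 genes because it lets a reader see how little separates a gene counted in WT podocytes from copies counted almost only in AS podocytes. The first 120 coding bases were read from the GENCODE M21 transcripts, and capitals mark the positions at which Trim12c differs from the others.
Trim12a: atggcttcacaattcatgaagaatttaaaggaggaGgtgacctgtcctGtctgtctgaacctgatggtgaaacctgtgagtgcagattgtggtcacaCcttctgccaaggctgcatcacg
Trim5: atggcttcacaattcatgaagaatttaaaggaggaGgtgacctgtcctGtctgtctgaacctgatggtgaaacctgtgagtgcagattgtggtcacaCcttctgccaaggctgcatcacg
Trim12c: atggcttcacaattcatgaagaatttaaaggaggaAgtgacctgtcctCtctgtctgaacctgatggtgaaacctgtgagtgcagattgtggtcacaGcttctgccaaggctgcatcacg
Trim12a and Trim5 were identical over this stretch, and Trim12c differed from both at 3 bases. Over the aligned coding bases, Trim12a was 94.3% identical to Trim5 and 92.9% identical to Trim12c, and Trim5 was 96.6% identical to Trim12c. The coding sequence of Trim12a had 855 bases, while those of Trim5 and Trim12c had 1494 bases each.

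Gvin1 has a closer copy still. The longest coding transcripts of Gvin1 and of its neighbour Gm4070 aligned over 9005 bases, of which 9002 were identical. The 3 differences are shown with 14 bases on either side, with the differing base in capitals. Within the aligned bases, a read tells these transcripts apart only where it covers one of these differences. The Gm4070 transcript has 9007 bases, and its exons together cover 9.275 kilobases, so reads outside the aligned bases may also differ. All 3 differences lie in the coding sequence of Gvin1.
Gvin1, base 2105: atctcagttgtgcaGccttctagaacctc
Gm4070, base 2107: atctcagttgtgcaTccttctagaacctc
Gvin1, base 5204: tatggaaggacggaGgagactggagcaga
Gm4070, base 5206: tatggaaggacggaAgagactggagcaga
Gvin1, base 7375: tccgggaattcccaCtcaagaaatatcga
Gm4070, base 7377: tccgggaattcccaTtcaagaaatatcga
Bases are counted from 1 at the start of each transcript. Of the stretches of 100 bases in the Gvin1 transcript, 97.8% were also found, letter for letter, in a transcript of another gene. How reads that match several genes were counted is not given in the sources used here, and the levels of Gvin1 and Gm4070 are uncertain for that reason.

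The other members were less alike than this. At 100 bases, 42.0% of the stretches of Trim34a were shared with another gene, and the gene that shared the most was Trim34b. The share was 12.7% for Trim5, 8.38% for Trim12a and 7.64% for Trim12c. Trim30a shared 4.79% and Trim30d 5.53% of their stretches, each with the other, while Trim6, Trim30b and Trim30c shared none at this length. With stretches of 50 bases the shares rose to 61.9% for Trim34a, 38.4% for Trim5, 34.4% for Trim12c and 23.5% for Trim12a. The values of Trim34a, Trim5, Trim12a and Trim12c are therefore also uncertain where a read fell in a shared stretch.

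**Figure D1:**
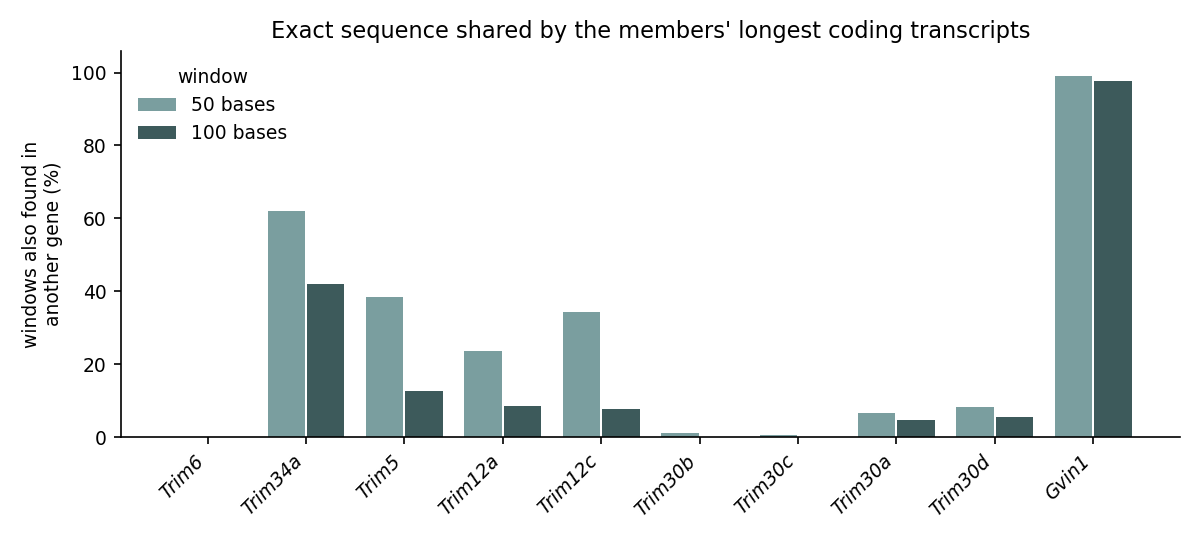
Share of the stretches of 50 bases (light bars) and 100 bases (dark bars) of each member's longest coding transcript that are also found in a transcript of another gene, in percent. Gvin1 stands highest at 99.2% and 97.8%, Trim34a follows at 61.9% and 42.0%, and Trim6 shares none.

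The region around the transcription start is shown for 5 members, because the same short element lies near the start of copies that were counted in both lines and of copies that were counted almost only in AS podocytes. Each sequence runs from 100 bases before to 25 bases after the start (RefSeq, GRCm38.p6, all on the minus strand). Capitals mark a match to the core of the interferon-stimulated response element (ISRE), the site bound by the STAT and IRF factors that interferon activates. The core was searched on both strands as GAAA, any 2 bases and GAAA again, and in these 5 genes it was found on the other strand, where it reads TTTC, 2 bases and TTTC.
Trim12a, chr7:104315471-104315595: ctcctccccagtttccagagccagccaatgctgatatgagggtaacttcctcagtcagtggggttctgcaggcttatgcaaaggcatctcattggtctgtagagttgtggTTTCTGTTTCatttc
Trim5, chr7:104288082-104288206: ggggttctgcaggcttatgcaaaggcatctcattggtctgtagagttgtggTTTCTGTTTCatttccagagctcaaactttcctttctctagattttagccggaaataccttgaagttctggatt
Trim12c, chr7:104353325-104353449: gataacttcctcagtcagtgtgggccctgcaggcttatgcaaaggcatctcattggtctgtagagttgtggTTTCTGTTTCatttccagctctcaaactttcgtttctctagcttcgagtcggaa
Trim30a, chr7:104465169-104465293: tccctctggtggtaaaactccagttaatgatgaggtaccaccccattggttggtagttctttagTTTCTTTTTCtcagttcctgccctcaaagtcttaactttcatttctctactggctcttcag
Trim30d, chr7:104507825-104507949: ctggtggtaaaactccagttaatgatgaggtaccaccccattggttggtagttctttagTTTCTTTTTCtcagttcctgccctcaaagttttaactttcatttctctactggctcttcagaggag
A window of 300 bases around the start was at hand for 9 of the 10 members (Gvin1 had none), in 10 windows because Trim30a has 2. The ISRE core was found in 6 members, namely Trim5, Trim12a, Trim12c, Trim30a, Trim30d and Trim34a, and in 3.44% of all 32851 mouse windows of the same length. The gamma-activated site, searched as TTCNNNGAA, was found in Trim30c alone and in 8.30% of all windows. Where they aligned, the windows of close copies were nearly the same. Of the aligned bases, 241 of 241 were identical between Trim12a and Trim5 and 247 of 260 between Trim12a and Trim12c. Between Trim30a and Trim30d, 277 of 295 were identical. These identical bases make up 80.3%, 82.3% and 92.3% of the 300 bases. The core began at base 11 after the start in Trim12a, but 49 bases before it in Trim5 and 29 before it in Trim12c. A match describes the letters of this reference genome and not the DNA of either line.

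The total count lay between 45417221 and 54290968 per sample. Levels are given as CPM, that is counts relative to the library size after scaling by TMM. Where a group of 3 samples has no count, the level may still reach 0.0209 CPM (WT podocytes) or 0.0198 CPM (AS podocytes), the value of 3 counts over the group, counting error only. Col4a3, the gene lacking in the AS model, stood between 938 and 1272 CPM in WT podocytes and between 61.2 and 82.9 CPM in AS podocytes, with an adjusted p of 1.31e-07 in edgeR's quasi-likelihood test. Podocyte markers summed to between 2229 and 2498 CPM in WT podocytes and between 1832 and 1951 CPM in AS podocytes. Tcf21 had no count in any sample, and Nphs1 (nephrin) had 0.466 ± 0.0097 CPM in WT podocytes and 0.0407 ± 0.0390 CPM in AS podocytes (SD, n = 3 each). Other podocyte markers were well counted: Actn4 had 810 ± 45.7 and 677 ± 16.7 CPM, Synpo 803 ± 44.2 and 526 ± 30.8 CPM, and Wt1 20.6 ± 5.28 and 2.50 ± 0.928 CPM in WT and AS podocytes.

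Of the 10 members, 8 passed the filter on low counts, and Trim30b and Trim30c did not. In 5 members (Trim5, Trim12a, Trim30d, Trim34a and Gvin1) every AS sample was above every WT sample, in 3 members (Trim6, Trim12c and Trim30b) every AS sample was below every WT sample, and in Trim30a and Trim30c the groups overlapped. Over all 16263 genes tested, the groups did not overlap in 52.3%, with AS above WT in 26.4% and below in 26.0%, and since the members were chosen from this contrast nothing is read from their count beside it.

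**Figure D2:**
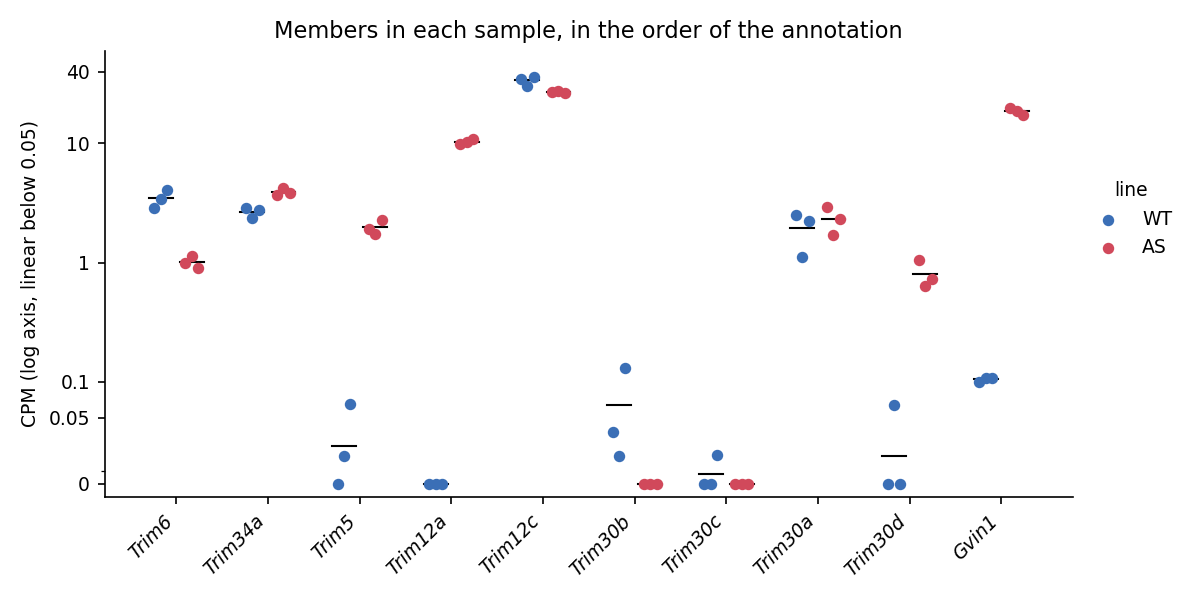
CPM of each of the 10 members in the 3 WT samples (blue) and the 3 AS samples (red), on an axis that is logarithmic above and linear below 0.05 CPM. Points are samples and lines are group means. Trim12a lies at 0 in the WT samples and at about 10 CPM in the AS samples, and Gvin1 lies near 0.1 and near 19 CPM.

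Trim12a encodes a short TRIM, with 855 coding bases, although the annotated coding sequence of Trim30b is shorter, at 570 bases. It had 0 counts in each WT sample and 448, 524 and 595 counts in AS samples 1, 2 and 3, or 9.95, 10.2 and 10.8 CPM. The mean in AS podocytes was 10.3 ± 0.446 CPM (SD, n = 3), at least 494-fold higher than WT podocytes could hold with no count over the group. Every AS sample was high, every WT sample was empty, and the AS samples lay close together.

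Trim5, whose first coding bases and aligned part of the start region match those of Trim12a, went the same way at a lower level. It had 0, 1 and 3 counts in the WT samples and 87, 90 and 126 counts in the AS samples. Its level was 0.0288 ± 0.0331 CPM in WT podocytes and 1.99 ± 0.274 CPM in AS podocytes. The ratio of AS to WT was 69.1, and the ratio of pooled counts was 71.8 with an exact 95% counting interval from 27.8 to 265. The groups did not overlap, and the WT level rests on 4 reads.

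Trim12c was the full-length copy present in both lines. It had 34.5, 30.5 and 36.5 CPM in the WT samples and 26.9, 27.4 and 26.8 CPM in the AS samples. The means were 33.8 ± 3.06 and 27.0 ± 0.360 CPM, and the log2 fold change of AS over WT was -0.32 (SE 0.08). The lowest WT sample stood above the highest AS sample. When the counts of Trim12a and Trim12c were added, the difference turned: the sum was 33.8 ± 3.06 CPM in WT podocytes and 37.3 ± 0.458 CPM in AS podocytes, with a log2 fold change of 0.14. Trim12a held 27.0%, 27.1% and 28.8% of the added counts in the AS samples and 0% in each WT sample. A lower count of Trim12c in AS podocytes was thus seen only when the copies were counted apart.

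The Trim30 genes fell into those that were counted and those that were not. Trim30a, the member with a known role in NF-kB signalling, had 2.49, 1.11 and 2.25 CPM in the WT samples and 2.91, 1.71 and 2.34 CPM in the AS samples. The groups overlapped, with means of 1.95 ± 0.736 and 2.32 ± 0.598 CPM. The log2 fold change was 0.25 (SE 0.31), and it was -0.04 without WT replicate 2, the lowest sample.

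Trim30d is a shorter copy, with 1044 coding bases that were 90.0% identical to those of Trim30a where they aligned. It had 0, 3 and 0 counts in the WT samples and 47, 33 and 40 counts in the AS samples. Its mean level was 0.804 ± 0.212 CPM in AS and 0.0214 ± 0.0370 CPM in WT podocytes. The ratio of pooled counts was 37.9, with an exact 95% counting interval from 12.7 to 187. The AS samples were all above the WT samples, and the 3 reads of the WT line came from 1 sample.

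Trim30b was the one member with counts in each WT sample and none in AS podocytes. It had 2, 1 and 6 counts in the WT samples, and its mean in WT podocytes, 0.0636 ± 0.0582 CPM, was at least 3.21 times what 0 counts allow in AS podocytes. Trim30c had 1 count in WT sample 3 and none elsewhere, and was not detectable at this depth. The 4 Trim30 genes together came to 2.04 ± 0.735 CPM in WT podocytes and 3.13 ± 0.800 CPM in AS podocytes, and those sums overlapped.

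Trim34a had 2.90, 2.35 and 2.75 CPM in the WT samples and 3.69, 4.22 and 3.85 CPM in the AS samples. The means were 2.67 ± 0.284 and 3.92 ± 0.274 CPM, with no overlap and a log2 fold change of 0.55 (SE 0.16). Its copy Trim34b went the other way, from 3.10 ± 0.411 CPM in WT to 1.97 ± 0.581 CPM in AS podocytes, a difference that did not pass the test (adjusted p = 0.0560, edgeR's quasi-likelihood test). Trim34a held between 44.7% and 47.2% of the counts of this pair in the WT samples and between 60.1% and 75.1% in the AS samples. The sum of both overlapped between the lines, at 5.76 ± 0.679 CPM in WT podocytes and 5.89 ± 0.452 CPM in AS podocytes.

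Trim6, which shares no stretch of 50 bases with another gene, was the clearest member on the lower side. It had 2.88, 3.44 and 4.07 CPM in the WT samples and 0.999, 1.13 and 0.909 CPM in the AS samples. The means were 3.46 ± 0.598 and 1.01 ± 0.110 CPM, a ratio of AS to WT of 0.292 and a log2 fold change of -1.77 (SE 0.21). Every AS sample lay well below the lowest WT sample.

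Gvin1, the large GTPase, had 5 counts in each WT sample and 901, 971 and 959 counts in the AS samples. Its level was 0.105 ± 0.00524 CPM in WT podocytes and 18.8 ± 1.29 CPM in AS podocytes. The ratio of pooled counts was 179, with an exact 95% counting interval from 108 to 320, and the log2 fold change was 7.45 (SE 0.17). All AS samples were high and all WT samples stood near 0.1 CPM. Its near copy Gm4070 was high in both lines, at 43.5 ± 4.42 CPM in WT podocytes and 40.5 ± 2.67 CPM in AS podocytes, and did not pass the test (adjusted p = 0.374, edgeR's quasi-likelihood test). Gvin1 held between 0.223% and 0.257% of the counts of the pair in the WT samples and between 28.7% and 33.3% in the AS samples. The sum of both was 43.6 ± 4.42 CPM in WT podocytes and 59.3 ± 2.21 CPM in AS podocytes, a ratio of 1.36 with no overlap.

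**Figure D3:**
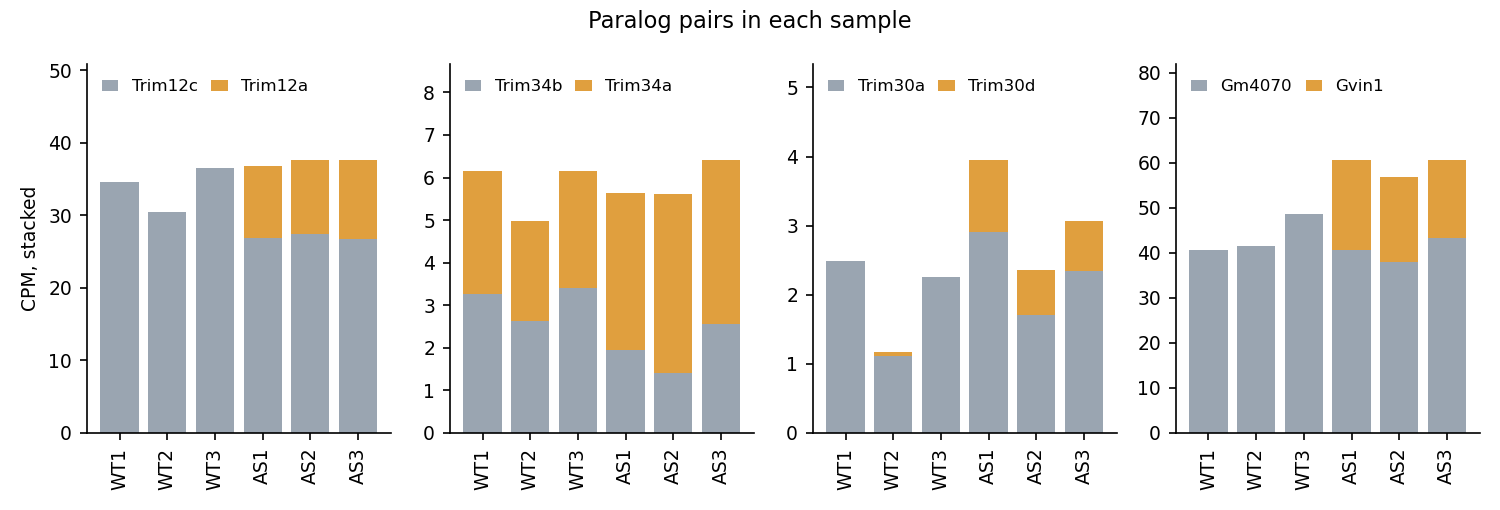
CPM of 4 pairs of close copies, stacked for each sample, from an axis that starts at 0 and differs between panels. Trim12a (orange) makes up 27.0% to 28.8% of the Trim12a and Trim12c bar in the AS samples and Gvin1 28.7% to 33.3% of the Gvin1 and Gm4070 bar, and both are at or near 0 in the WT samples.

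The 9 TRIM members together came to 42.0 ± 4.20 CPM in WT podocytes and 47.4 ± 0.308 CPM in AS podocytes, a ratio of 1.13 with no overlap. Most of this sum was Trim12c, at 33.8 ± 3.06 CPM in WT podocytes and 27.0 ± 0.360 CPM in AS podocytes. The summed level, dominated by that gene, differed less between the lines than the levels of Trim5, Trim12a, Trim30d and Trim6 did on their own.

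The members were ranked by their level per length, as CPM per kilobase of the union of a gene's exons. Trim12c ranked first in both lines, at 9.04 ± 0.817 CPM per kilobase in WT and 7.22 ± 0.0962 in AS podocytes. In WT podocytes it was followed by Trim34a at 1.03 ± 0.110, Trim6 at 0.708 ± 0.122 and Trim30a at 0.474 ± 0.179 CPM per kilobase. The samples of Trim6 and Trim30a overlapped, and so did those of the next 5 members, each with its neighbour in the order, from Gvin1 at 0.0116 to Trim30c at 0.00421 CPM per kilobase. Trim12a came last with no count.

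In AS podocytes the order below Trim12c was Gvin1 at 2.08 ± 0.144, Trim12a at 1.78 ± 0.0771 and Trim34a at 1.51 ± 0.106 CPM per kilobase, with no overlap between neighbours. Trim30a at 0.565 ± 0.146 and Trim5 at 0.539 ± 0.0743 CPM per kilobase overlapped, as did Trim30d at 0.214 ± 0.0563 and Trim6 at 0.207 ± 0.0226. Trim30b and Trim30c had no count. The place of Trim12a depends on the length used. With the longest coding transcript of 1.531 kilobases in place of the exon union of 5.781 kilobases, Trim12a stood at 6.74 ± 0.291 CPM per kilobase and moved to rank 2, above Gvin1, while Trim12c remained first.

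Over the 6 samples, Pearson's r of log2(CPM + 0.5) with Trim12a was 0.999 for Gvin1, 0.997 for Trim5, 0.975 for Trim30d, 0.935 for Trim34a, 0.327 for Trim30a, -0.900 for Trim12c and -0.981 for Trim6. These values describe 2 groups of 3 samples that share a line and are no evidence of a relation within a line. Among the tested genes outside the cluster, the 5 most like Trim12a by this measure were Trafd1, Syt14, Gm13394, Gm5514 and Tns2, and the 5 most like Gvin1 were Sema3f, Gm853, Ptx3, Gm13394 and Plek. None of these 9 genes lies on chromosome 7. Trafd1 had a mean of 63.4 CPM in WT podocytes and 105 CPM in AS podocytes, Syt14 had 0.209 and 11.8 CPM, and Ptx3, a secreted pattern recognition molecule, had 0.111 and 17.3 CPM.

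The neighbouring genes show how far the difference reached along the chromosome. Of the 105 annotated genes of the table between the first and the last member, 62 had no count in any sample. Of the 105, 42 were olfactory receptor genes, 2 of them with a count. The 25 genes other than members that passed the filter there had a median log2 fold change of 0.04, beside 0.01 over all genes tested. Of these 25 genes, 6 passed edgeR's quasi-likelihood test (adjusted p below 0.05), 5 of them higher in AS podocytes and 1 lower. This is 24.0% against 40.1% of all genes tested, where 20.4% were higher and 19.6% lower. With the 10 nearest tested genes beyond each end, 15 of 45 were called, 8 higher and 7 lower (33.3%), beside 35.2% of the tested genes of chromosome 7 without the members.

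The 24 tested genes between Trim30d and Gvin1 had a median log2 fold change of 0.04, and 6 of them were called. Ilk, the integrin-linked kinase, had 230 ± 4.21 CPM in WT podocytes and 235 ± 13.9 CPM in AS podocytes, and Tpp1, a lysosomal peptidase, had 267 ± 15.4 and 261 ± 9.81 CPM. Neither passed the test (adjusted p = 0.673 and 0.740, edgeR's quasi-likelihood test). Hpx (hemopexin, which binds heme) rose with a log2 fold change of 1.56 (adjusted p = 0.00138). Cavin3, a caveola protein, rose by 0.57 (adjusted p = 0.00795), Fam160a2 rose by 0.19 (adjusted p = 0.0269), and Arfip2 fell by 0.22 (adjusted p = 0.00951) on the log2 scale in edgeR's quasi-likelihood test.

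Several pseudogenes related to Gvin1 lie beside it, and they were compared as well. Gm8979, whose transcript was 96.4% identical to that of Gvin1 where they aligned, had 4 counts over the WT samples and 331 over the AS samples, with a log2 fold change of 6.18 (SE 0.44, adjusted p = 7.38e-06). Gm8995 (92.0% identical) had 7 and 172 counts, with a log2 fold change of 4.50 (SE 0.79, adjusted p = 0.00167). Gm4759 (84.4% identical) had 57 and 413 counts, with a log2 fold change of 2.77 (SE 0.48, adjusted p = 0.00158). 9130208D14Rik (89.6% identical) rose by 0.76 (adjusted p = 0.0167), and Gm8989 at 0.75 (adjusted p = 0.144) did not pass edgeR's quasi-likelihood test. The relatives also share sequence with each other or with Gvin1: 71.0% of the stretches of 100 bases of Gm8979 were found in another gene, and 3.06% of those of Gm8995, whereas Gm4759 shared none.

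**Figure D4:**
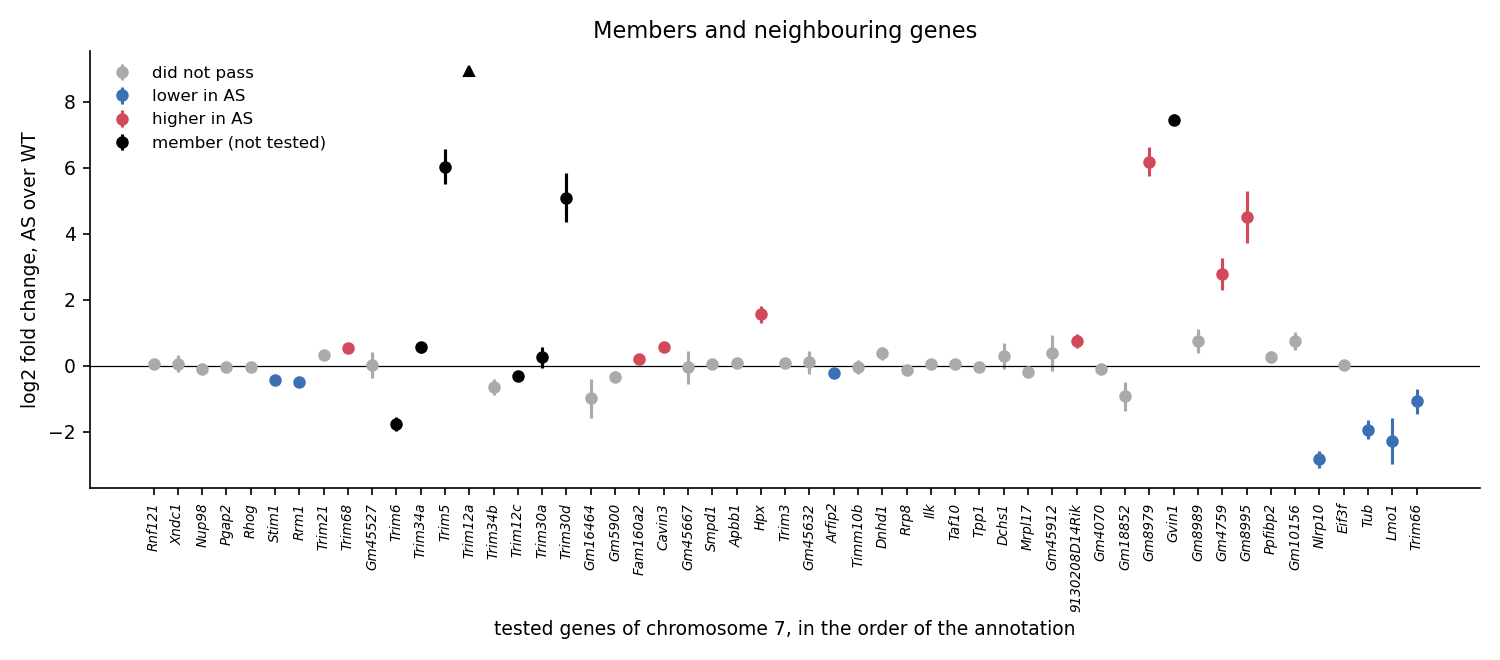
Log2 fold change of AS over WT, with its standard error as bars, for the tested members and the 45 tested neighbours in their order along chromosome 7. Black points are members, which were not tested, and the triangle is the lower bound for Trim12a. Red and blue points passed edgeR's quasi-likelihood test in either direction and grey points did not. The high values sit at the TRIM copies and again at Gvin1 and its relatives, and the median of the genes between Trim30d and Gvin1 is 0.04, with Hpx at 1.56.

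Among the neighbours that missed the filter, 2 were picked out after their values were seen. Gm15133, annotated as an antisense transcript at the locus, had no count in WT podocytes and 13, 2 and 13 counts in the AS samples, at least 9.0-fold higher. Whether the counting used strand is not given, so its reads cannot be told from those of genes on the other strand. Gm18853, a pseudogene by Gvin1, had none in WT podocytes and 11, 5 and 28 counts in the AS samples, at least 13.6-fold higher. Its copy Gm18852, with which it shares 97.0% of its stretches of 100 bases, had 0.646 ± 0.115 CPM in WT podocytes and 0.333 ± 0.174 CPM in AS podocytes and did not pass edgeR's quasi-likelihood test (adjusted p = 0.130).

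Before Trim6, the nearest tested genes included 2 other TRIM genes, with many untested genes in between. Trim68 rose with a log2 fold change of 0.53 (SE 0.09, adjusted p = 0.00162), and Trim21, the cytosolic antibody receptor, had 0.33 (SE 0.12, adjusted p = 0.0537) in edgeR's quasi-likelihood test. Stim1, the calcium sensor of the endoplasmic reticulum, fell by 0.42 (adjusted p = 0.000626) and Rrm1, a ribonucleotide reductase subunit, fell by 0.48 (adjusted p = 0.000673) in the same test. Beyond Gvin1, Nlrp10, Tub, Lmo1 and Trim66 fell, with log2 fold changes from -2.85 to -1.09, and these were picked out after their values were seen. Over all 34 other tested Trim genes of the genome, 7 were called higher and 6 were called lower in the AS line, or 38.2% against 40.1% of all genes tested, with a median log2 fold change of 0.08 and a range from -1.09 to 0.98.

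Lists of other interferon genes were counted because Trim34a and Gvin1 are known as interferon-induced genes and the medium held interferon gamma during growth. During differentiation, by the study's methods, interferon gamma was left out. Of 8 tested interferon-induced TRIM genes outside the cluster, 1 rose and 1 fell. Trim25, which ubiquitinates the RNA sensor RIG-I, rose by 0.29 and Trim62 fell by 0.59 on the log2 scale (adjusted p = 0.0148 and 0.00540, edgeR's quasi-likelihood test). The median log2 fold change was -0.02, and 4 genes were called with limma-voom or DESeq2.

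Of 15 tested interferon-induced GTPases, Irgm1 rose by 0.41 (adjusted p = 0.00849) while Gbp2, Gbp2b, Gbp3 and Gbp8 fell, and 10 did not pass. The share called was 33.3%, against 40.1% of all genes tested. The guanylate-binding protein Gbp2 went from 62.2 ± 6.28 CPM in WT to 31.5 ± 2.00 CPM in AS podocytes (adjusted p = 2.39e-05, edgeR's quasi-likelihood test). Gbp2b fell by 1.05 on the log2 scale (adjusted p = 3.40e-05, edgeR). The median log2 fold change of the list was -0.06.

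Of 41 tested genes on the list of other interferon-induced genes, 10 rose and 9 fell, or 46.3% against 40.1% of all genes tested. The median log2 fold change was -0.07, and leaving out WT replicate 3 left 12 called. Ifit3 rose by 0.77 (adjusted p = 5.34e-05) and Ifit2 rose by 0.66 (adjusted p = 0.000176), 2 RNA-binding antiviral proteins. Ly6e fell by 1.38 (adjusted p = 1.16e-06), Cmpk2 fell by 1.86 (adjusted p = 0.000255) and Ddx58, which encodes RIG-I, fell by 0.40 (adjusted p = 0.00151) on the log2 scale in edgeR's quasi-likelihood test. Over the 3 lists of interferon-induced genes, 26 of 64 tested genes were called, 12 higher and 14 lower, or 40.6% against 40.1% of all genes. The summed level of these genes ran from 1936 to 2167 CPM in the WT samples and from 1930 to 2015 CPM in the AS samples, with overlap.

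The signalling genes upstream were mixed as well, with 7 of 22 called higher and 4 called lower, or 50% against 40.1% of all genes tested. The receptor subunit Ifngr1 rose from 76.0 ± 7.45 to 105 ± 5.04 CPM (adjusted p = 0.00113), and its partner Ifngr2 had a log2 fold change of 0.04 (adjusted p = 0.694) in edgeR's quasi-likelihood test. Of the type I receptor, Ifnar1 fell by 0.31 (adjusted p = 0.00127) and Ifnar2 had a log2 fold change of -0.22 (adjusted p = 0.140). The kinase Jak2 rose by 0.47 (adjusted p = 0.000858) and Jak1 fell by 0.30 (adjusted p = 0.00165) on the log2 scale. Stat2 rose by 0.49 (adjusted p = 0.00307) and Irf1 by 0.41 (adjusted p = 0.00300), both transcription factors of the response. Irf7 and Irf9 had log2 fold changes of 0.13 (adjusted p = 0.686) and 0.18 (adjusted p = 0.258) in edgeR's quasi-likelihood test.

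**Figure D5:**
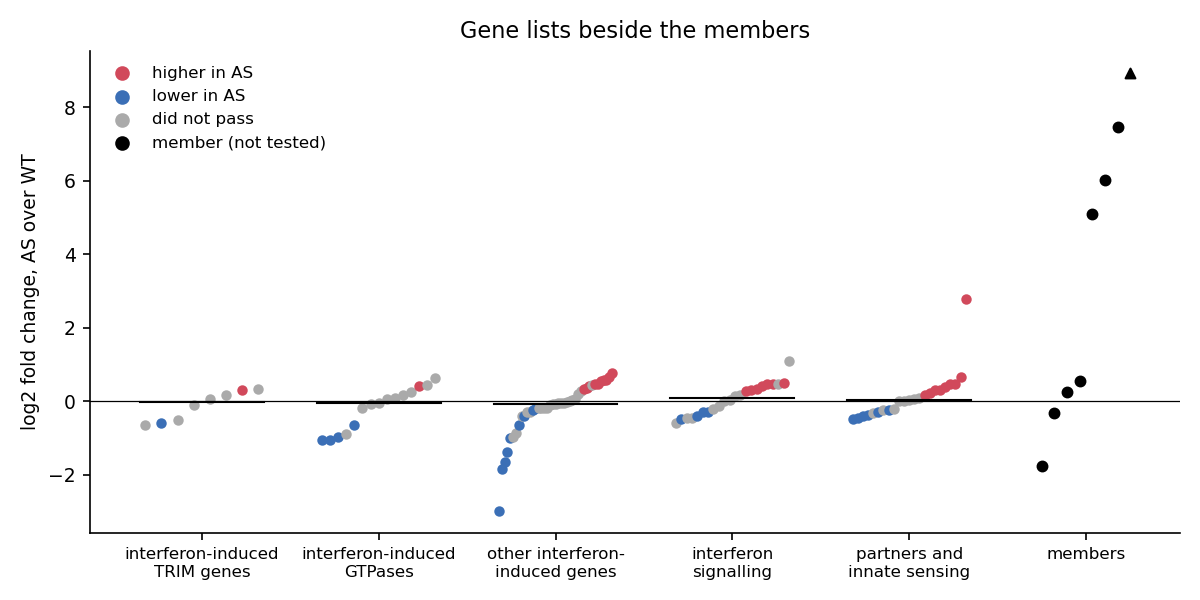
Log2 fold change of AS over WT for every tested gene of 5 lists and for the tested members, in order of value within a list. Lines mark list medians, red and blue points passed edgeR's quasi-likelihood test, grey points did not, and black points are members, which were not tested (the triangle is the bound of Trim12a). The 5 list medians lie between -0.07 and 0.08, while 4 members lie above 5.

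Of 23 tested partners of TRIM5 and TRIM30 and genes of innate sensing, 9 rose and 6 fell, or 65.2% against 40.1% of all genes tested, with a median log2 fold change of 0.04. Without AS replicate 2, 10 were called. Of the TAK1 complex, through which TRIM5 and Trim30a act, Tab1 rose by 0.65 (adjusted p = 0.000380) and Map3k7, the kinase TAK1 itself, fell by 0.40 (adjusted p = 0.000394) on the log2 scale in edgeR's quasi-likelihood test. The 2 adaptors targeted by Trim30a moved in opposite directions: Tab2 rose by 0.24 (adjusted p = 0.0110) and Tab3 fell by 0.23 (adjusted p = 0.0307). The kinase subunit Chuk rose by 0.47 (adjusted p = 0.000111), Ikbkg fell by 0.48 (adjusted p = 0.000507) and the adaptor Mavs fell by 0.47 (adjusted p = 0.000242) in edgeR's quasi-likelihood test. The DNA sensor gene Cgas had the highest value of the list, with 36 counts in WT and 261 in AS podocytes and a log2 fold change of 2.77 (SE 0.44, adjusted p = 0.000941 in edgeR's quasi-likelihood test). Tab2, Tab3 and Cgas were singled out after their values were seen.

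Several members are known from immune cells, so markers of other cell types were summed in each sample. Of 10 macrophage markers, Adgre1, Fcgr1, Tyrobp and C1qa had no count in any sample, and the sum was 23.8 to 28.5 CPM in WT podocytes and 30.9 to 36.8 CPM in AS podocytes. Cd14 had the highest level of the list, at 13.5 ± 2.95 CPM in WT podocytes and 26.7 ± 3.07 CPM in AS podocytes (adjusted p = 0.000673), whereas Csf1r fell by 1.43 on the log2 scale (adjusted p = 9.4e-05) in edgeR's quasi-likelihood test. Of 6 lymphocyte markers, Cd3e and Cd3g had no count, and the sum stayed at or below 0.152 CPM in every sample. The endothelial sum was 47.2 to 55.5 CPM in WT podocytes and 39.7 to 44.5 CPM in AS podocytes, with 3 of 3 tested genes lower. Most of that sum was Ehd3, at 48.6 ± 4.05 and 40.6 ± 2.87 CPM, and only 3 of the 7 endothelial genes passed the filter. The tubular sum was 377 to 424 and 281 to 392 CPM, with Umod at 0. Its highest gene, Lrp2, had 274 ± 30.9 and 255 ± 55.6 CPM. The mesangial sum was 248 to 276 and 124 to 126 CPM, most of it Pdgfrb. The macrophage, endothelial and mesangial sums did not overlap between the lines, while the lymphocyte and tubular sums did, and their part in the members' levels was not tested. In bulk samples, fewer cells of a type and less RNA per cell cannot be told apart. Nor can reads from other cells be told apart from expression of these markers by the cultured podocytes themselves.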

How the data were processed

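The data are RNA-seq of 3 samples of WT and 3 of AS podocytes. For each gene and sample the authors deposited a raw count, a whole number without normalization. Libraries were prepared from total RNA with an mRNA-seq kit and 15 PCR cycles. The submitters' processing notes name FastQC, Trim Galore, STAR, edgeR and mm39, while the counting tool, its settings for strand and for reads with several matches, and the annotation release are not named in the sources used here. Of 57132 identifiers, 51880 matched GENCODE M21 (GRCm38) without their version and 35 with it, so that annotation was used for names, gene order, lengths and sequence only. Coordinates and promoter letters are those of RefSeq on GRCm38.p6 and were not placed on mm39.

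The analysis used R 4.3.3 and edgeR 4.0.16. After filterByExpr at its defaults (a minimum count of 10 and 15 in total) and TMM scaling, AS was compared to WT with the two-sided quasi-likelihood test of edgeR, genotype being the only term, and p-values of all 16263 genes tested were adjusted by Benjamini-Hochberg. The standard error, an approximation, is the ratio of the log2 fold change and the square root of F. The scripts were tested on simulated data. Fold bounds use a floor of 3 counts over a group, pooled ratios have exact 95% intervals, and neither covers more than counting error, because reads carried no molecular identifiers. With 3 samples in each group the smallest p of an exact permutation test is 0.1, and none was run. Sequences were aligned with Biopython 1.88.

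The members and gene lists were chosen with earlier results of these data known. Genes named are the members, tested neighbours between them and the 5 nearest beyond each end, up to 5 called genes per list by smallest adjusted p, the interferon receptors, Stat2, Irf1, Irf7, Irf9, Col4a3, the 5 genes most like Trim12a and Gvin1 each, and markers at 0 or highest in a list, apart from 2 genes that are not reported here. Those named beside this rule are Nlrp10, Tub, Lmo1, Trim66, Gm15133, Gm18853, Tab2, Tab3, Cgas, Nphs1, Synpo, Wt1 and Csf1r. Alternatives were DESeq2's size factors, library size only, limma-voom (limma 3.58.1), DESeq2 1.42.0, no filter, a minimum mean CPM of 1, the replicate block, summed copies, and each sample left out.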

Additional observations from a re-analysis of the deposited data

How the results depend on the processing

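The number of genes called over the whole table ran from 5120 to 7066 over the alternatives. For the interferon-induced TRIM genes outside the cluster, 2 genes were called, and 4 with limma-voom, 4 with DESeq2 and 4 with the replicate block, while leaving out 1 sample gave 1 to 3. For the other interferon-induced genes, 19 were called, and leaving out 1 sample gave 12 to 18, the lowest without WT replicate 3. The counts of the remaining lists and of the neighbours stayed within 1.5 times the value reported, and the members without overlap were 8 in each alternative run. Of 107 member values under alternatives, 90 moved by less than 1 SD, 15 moved by more and 2 reversed: Trim12c had 0.14 with Trim12a and Trim12c summed, and Trim30a had -0.035 without WT replicate 2, where leaving out 1 sample gave -0.035 to 0.46. Trim30d ran from 4.53 to 8.32 on the log2 scale when 1 sample was left out (8.32 without WT replicate 2, which held its WT counts) and Trim5 from 5.45 to 7.28.

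Samples with the same set number correlated at 0.147, 0.0939 and 0.0526 in their deviations from the group means, with -0.130 to 0.0571 for other numbers, and 5 of 6 samples correlated best with their own number. The numbers were not taken as pairs. With the replicate block, 7066 genes were called in all, 18 neighbours and 13 interferon signalling genes. The level of members under 0.1 CPM is limited by depth.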
